A study of Bos taurus with 20 samples.

Results

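The genes described here encode 7 fibroblast growth factor (FGF) ligands, FGF1, FGF2, FGF5, FGF7, FGF9, FGF10 and FGF18, measured by bulk RNA sequencing in clones of bovine mesenchymal stem cells (MSCs). They were found by symbol in a table of raw counts holding 33063 named genes, and all 7 were listed there. The filter on low counts left 6 of them for a test and took out FGF9.

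MSCs were grown out of cattle adipose tissue by enzymatic digestion, and single cells were sorted to found clones. Clones were differentiated towards fat and scored for lipid, with the dye Oil Red O according to the labels and by visual inspection and the dye BODIPY according to the study's methods, and the RNA came from clones before differentiation. The series held 10 adipogenic (A) clones and 10 non-adipogenic (N) clones. Of the 4 animals, 22 and 23 contributed 4 clones of either kind, and 17 and 20 contributed a single A and a single N clone. The animals were Holstein Friesian x Aberdeen Angus calves in their first months of life, and the fat was taken from the groin or around the kidney. Sorted cells were first grown in medium conditioned by MSCs of their own animal. Every clone of both groups was expanded with 10% fetal bovine serum and with bFGF, that is FGF2 protein, at 5 ng/ml, so no clone was measured without an added ligand of the family. Each library was 1 clone, clones from 1 animal share that animal, and p-values measure the spread between clones. A clone is named by its group, animal and number, as in A 23-14.

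FGFs are secreted or released proteins that bind receptor tyrosine kinases together with heparan sulfate, a sulfated sugar chain on the cell surface. The receptors signal largely through the ERK pathway, which switches on ETV transcription factors and also its own inhibitors, the Sprouty and SPRED proteins and the DUSP phosphatases. In adipose tissue, FGF1 is known as a target of the adipogenic regulator PPARG, FGF10 is known to promote the maturation of pre-adipocytes, and FGF2 is widely used to keep MSCs dividing.

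Levels are given as CPM, that is counts scaled to a common library total, scaled for library composition by the TMM method, and fold changes are of A against N clones. Named-gene totals were 14908802 to 43111345 counts in N clones and 14615493 to 29185355 in A clones, so 3 counts were worth 0.0764 to 0.216 CPM. The symbols come without transcript lengths for the build used, so each gene is compared across clones and not with other genes. Markers of stromal cells such as collagens were abundant in every clone, with summed levels of 29996 to 65224 CPM, while 4 of 8 endothelial markers (CDH5, KDR, TIE1 and CLDN5) and 3 of 8 leukocyte markers (PTPRC, LYZ and TYROBP) stayed under 1 CPM throughout. The 8 endothelial markers summed to 1.19 to 41.7 CPM in N and 5.25 to 70.1 in A clones, highest in A 17-57, and none of the 4 tested was called. The 8 leukocyte markers summed to 0.885 to 10.7 CPM in N (median 2.49) and 2.82 to 12.6 in A clones (median 8.58), and CD68, the only gene of them tested, was higher in A clones (log2 fold change of 1.06, adjusted p = 0.0157). N clones 22-5 and 22-9 stood apart, since 9 listed mesothelial and keratin markers summed to 9419 and 6741 CPM in them against medians of 173 in N and 60.8 in A clones. Next came A 22-11, A 22-16 and A 23-62, at 1131, 965 and 401 CPM. Genes of proliferation also moved with the groups, and 7 of 10 were lower in A clones, with summed levels of 34.4 to 370 CPM in A and 126 to 618 in N. Smooth muscle and pericyte markers summed to 4428 to 11732 CPM in A and 1086 to 10058 in N clones, and 3 of the 8 tested were higher in A clones. The 8 mature adipocyte markers summed to 5.76 to 123 CPM in N (median 20.5) and 18.5 to 98.4 in A clones (median 44.8). They were highest in N 20-15, and 1 of the 5 tested was higher in A clones. The 5 epithelial markers summed to at most 8.02 CPM in any clone, and the 1 tested was not called. The part of the leukocyte, proliferation, pericyte and mature adipocyte genes in the differences of FGF1 and FGFR1 was not tested. The closest libraries, A 22-11 and A 22-16, had a chi-square per degree of freedom of 23.0 over their counts, where sampling alone gives about 1. The next closest pair, A 22-27 and A 23-62, had 51.4. This ratio cannot tell 2 clones from 2 cultures of 1 clone, so each library was kept as 1 clone by its label.

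FGF1 was the ligand whose transcript separated the groups. Its level in N clones ran from 0 CPM, in N 23-10, through a median of 0.627 to 9.57, in N 22-18, and averaged 2.04 ± 3.08 (SD, n = 10). In A clones it ran from 3.90 CPM, in A 22-121, through a median of 19.8 to 287.5, in A 23-14, and averaged 61.3 ± 88.2 (SD, n = 10). The groups overlapped only at their edges, because 8 A clones exceeded all N clones and 8 N clones fell below all A clones. The log2 fold change was 5.34 ± 1.11 (SE), or 40.4-fold, with an adjusted p of 0.00489 (edgeR quasi-likelihood test with the animal as a block, Benjamini-Hochberg adjustment). The N clones had 0 to 376 counts of FGF1, at a median of 10.5, so the size of the fold rests partly on few counts. Its log2 value ran from 3.10 to 7.21 over 33 alternatives. Over the whole table, 10.3% of the 12900 genes tested were called higher in A clones at an adjusted p under 0.05, 10.3% were called lower, and 3.95% were higher by at least 2-fold. Of the 6 ligands tested, FGF1 was called higher, none was called lower and 5 were not called. The median log2 fold change over these 6 was 0.88, with 4 values above 0 and 2 below, against -0.01 over all genes tested. In bulk RNA, fewer cells of a type and less RNA per cell cannot be told apart.

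The direction of FGF1 was the same in 4 of 4 animals. In animal 17 the N clone had 0.0545 CPM, which is 1 count, and the A clone 21.1, and in animal 20 they had 0.860 and 124.8 CPM. Within animal 22, N clones ran from 0.395 to 9.57 CPM and A clones from 3.90 to 64.4, so the ranges met. Within animal 23, N clones ran from 0 to 1.74 CPM and A clones from 4.03 to 287.5, with no overlap. Clone A 23-14 carried much of the mean, and the fit that left it out gave 4.10 on the log2 scale with an adjusted p of 0.00453. The call was present in all 20 fits that left out 1 clone. It was lost without animal 23, at a log2 fold change of 4.12 and an adjusted p of 0.104. Animal 22 alone gave 3.10 with an adjusted p of 0.189, and animal 23 alone gave 7.11 with an adjusted p of 0.0555.

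**Figure D1:**
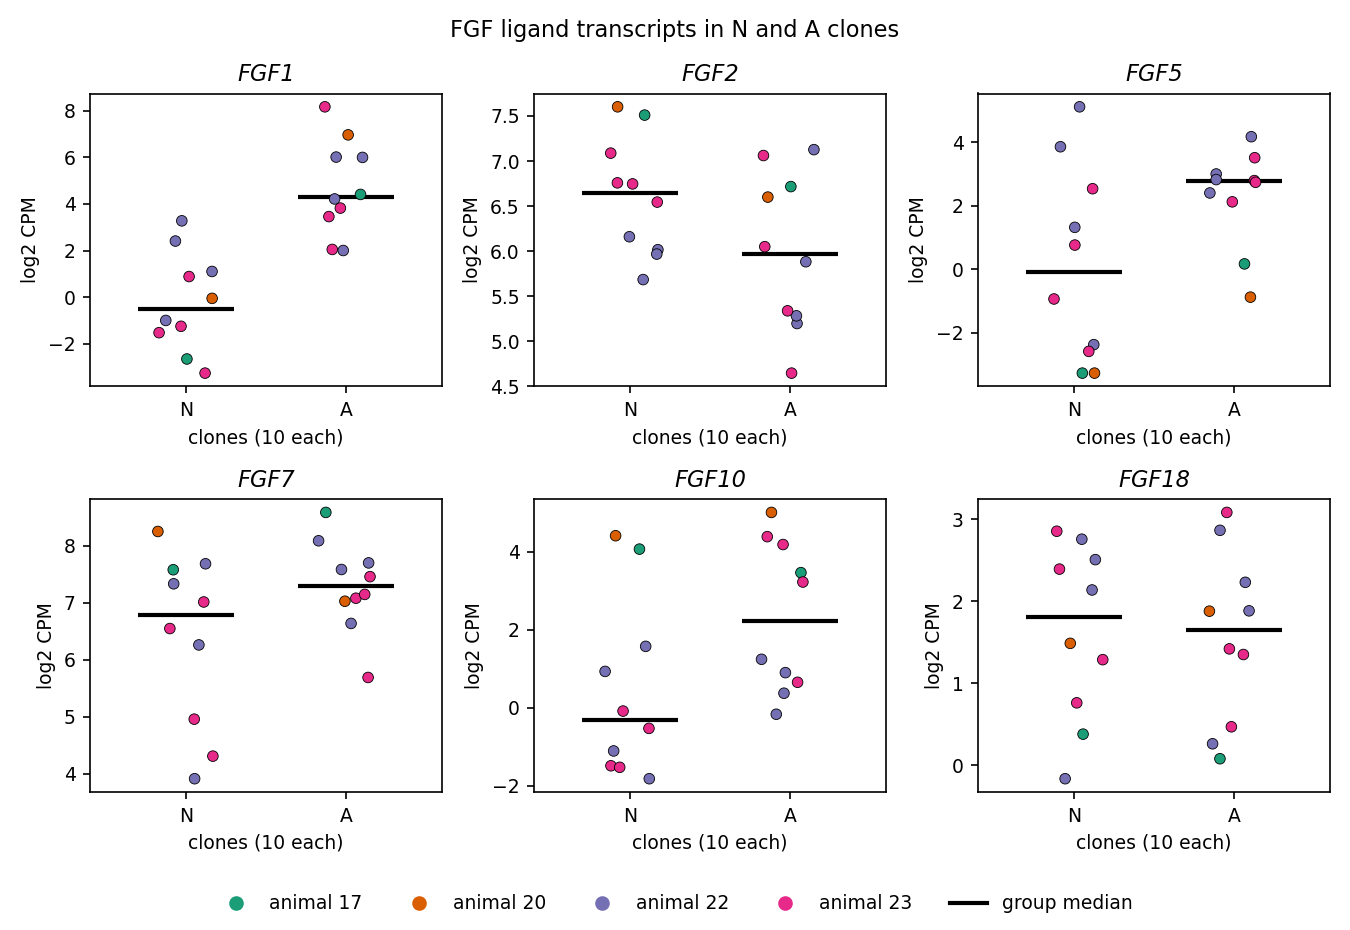
Level of each tested ligand in N and A clones, as log2 CPM (prior count of 2), with 1 point per clone coloured by animal and a bar at the group median of 10 clones; the vertical scale differs between panels. FGF1 is the panel where the groups nearly part, with 8 A clones over all N clones, while FGF2, FGF7 and FGF18 overlap broadly.

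In the RefSeq table of a later cattle assembly, FGF1 overlaps LOC100847454, a protein-coding locus. That locus had 7.05 to 12.3 CPM in N clones and 1.64 to 9.19 in A clones, for a log2 fold change of -0.57 ± 0.21 (SE, adjusted p = 0.0594). The values of these neighbours thus lay in opposite directions. How reads shared by overlapping genes were treated is not given in the sources used here.

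FGF2, the ligand also supplied in the medium, was read in every clone. In N clones its transcript ran from 51.3 to 194 CPM, at a median of 100.2 and a mean of 107 ± 49.9 (SD, n = 10). In A clones it ran from 24.9 to 139.6 CPM, at a median of 62.5 and a mean of 74.1 ± 41.9 (SD, n = 10). The groups overlapped, although 4 A clones lay below every N clone and 2 N clones lay above every A clone. The log2 fold change was -0.43 ± 0.30 (SE) with an adjusted p of 0.309, and the mean of log2 CPM was lower in A clones in 4 of 4 animals. In CPM the animal 22 means lay the other way, at 68.5 in A and 62.4 in N clones. The highest A clone was A 22-121, and leaving it out gave a log2 fold change of -0.68 ± 0.23 (SE) with an adjusted p of 0.0442, in a fit that called 11.6% of its genes lower. Animal 22 alone gave 0.12, the opposite sign. NUDT6, which lies across FGF2 in the RefSeq table, had at most 5.34 CPM in any clone.

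FGF10 and FGF7 are made by mesenchyme, and both act on the epithelial form of FGFR2. FGF10 had a median of 0.715 CPM in N clones, between 0.179 and 21.2, and a median of 5.77 in A clones, between 0.788 and 32.2. The ranges overlapped, with 5 N clones below every A clone. The log2 fold change of 1.74 ± 0.82 (SE) had an unadjusted p of 0.0493 and an adjusted p of 0.137, so it was not called. DESeq2 gave 1.78 with an adjusted p of 0.0243, in a fit that called 14.3% of its genes higher in A clones.

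The levels of FGF10 were spread widely over the animals. Animals 17 and 20 were high in both groups, with 16.7 and 21.2 CPM in their N clones and 11.0 and 32.2 in their A clones. In animal 22 both groups were low, at 0.179 to 2.88 CPM in N and 0.788 to 2.27 in A clones. In animal 23 the groups did not overlap, at 0.243 to 0.840 CPM in N and 1.47 to 20.9 in A clones. Fitted alone, animal 23 gave a log2 fold change of 4.68 ± 0.85 (SE, adjusted p = 0.0238), where 4.14% of genes were called higher, and animal 22 gave 0.18 (adjusted p = 0.923). The test of the difference itself, the interaction of condition and animal over 16 clones, gave 4.49 ± 1.205 (SE) in log2 with an unadjusted p of 0.00224 and an adjusted p of 0.319. In that interaction test edgeR called 0.031% of genes, and none of the 6 ligands was among them. An unadjusted p under 0.05 was found for 1170 genes. On simulated data this test recovered 111 of 200 genes whose interaction was set to 2 in log2. The absence of a call thus does not show that the animals agree.

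FGF7, also known as keratinocyte growth factor, was present in every clone. N clones ran from 15.0 to 305 CPM, at a median of 111.5 and a mean of 123 ± 94.4 (SD, n = 10). A clones ran from 51.6 to 385 CPM, at a median of 159 and a mean of 179 ± 94.5 (SD, n = 10). The ranges overlapped broadly, and 3 N clones lay below every A clone. The log2 fold change was 0.65 ± 0.43 (SE) with an adjusted p of 0.288. A clones were higher in 3 of 4 animals, and in animal 20 the N clone had 305 CPM and the A clone 130.5.

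**Figure D2:**
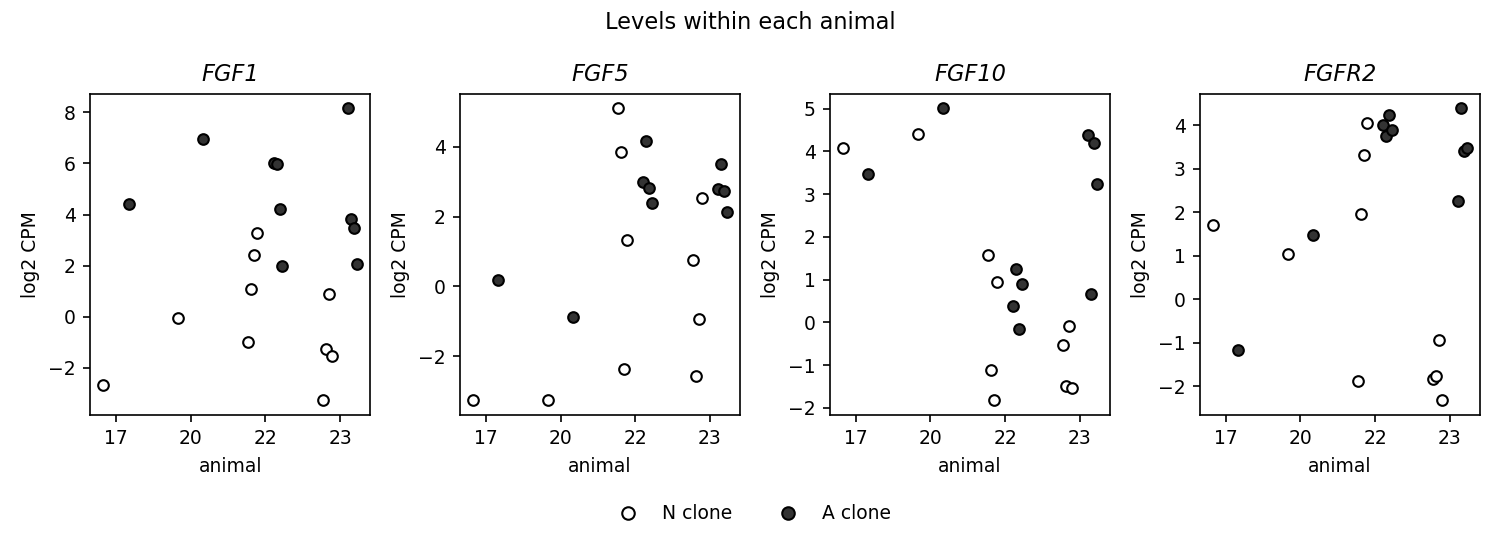
Level of FGF1, FGF5, FGF10 and FGFR2 within each animal, as log2 CPM (prior count of 2), with open points for N clones and filled points for A clones. FGF10 and FGFR2 part the groups in animal 23, with FGF10 at 1.47 CPM or more in its A clones and at most 0.840 in its N clones, and their ranges meet in animal 22.

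FGF5, known as a brake on hair growth, varied most among N clones. It had no count in N 17-23 and N 20-15, a median of 1.01 CPM over the N clones, and 34.4 and 14.3 CPM in N 22-5 and N 22-9. A clones lay between 0.441 and 17.9 CPM around a median of 6.68. Every A clone was thus inside the range of the N clones. The means were 5.90 ± 11.0 in N and 6.82 ± 5.02 in A clones (SD, n = 10 each), and the log2 fold change of 1.10 ± 0.87 (SE) was not called (adjusted p = 0.375). The N clones with the most FGF5 were those that carried the most mesothelial and keratin transcripts. KRT8, a keratin of simple epithelia and mesothelium, had 4779 CPM in N 22-5 and 2727 in N 22-9. Among A clones KRT8 was highest in A 22-11 and A 22-16, at 585 and 446 CPM. A 22-16 was also the A clone with the most FGF5, at 17.9 CPM. Over the 20 clones, FGF5 and KRT8 had a Pearson r of 0.72 and a Spearman rho of 0.76, and r was 0.60 after centring within each animal, given as a description over clones that share animals. With KRT8, FGF2 had r of -0.59 (-0.43 centred) and FGF18 had 0.47 (0.41 centred). The r of FGF1, FGF7 and FGF10 with KRT8 was 0.03, -0.35 and -0.28.

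Without N 22-5 and N 22-9, an alternative chosen after seeing the data, the log2 fold change of FGF5 was 2.54 ± 0.76 (SE) with an adjusted p of 0.0385, in a fit that called 8.27% of genes higher in A clones. In animal 22 alone, with both clones in, the fit gave -0.44, and the CPM means were 9.47 in A and 12.8 in N clones. The mean of log2 CPM lay the other way there, by 1.12, and was higher in A clones in 4 of 4 animals. The part of the mesothelial and keratin genes in these FGF5 values was not tested.

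**Figure D3:**
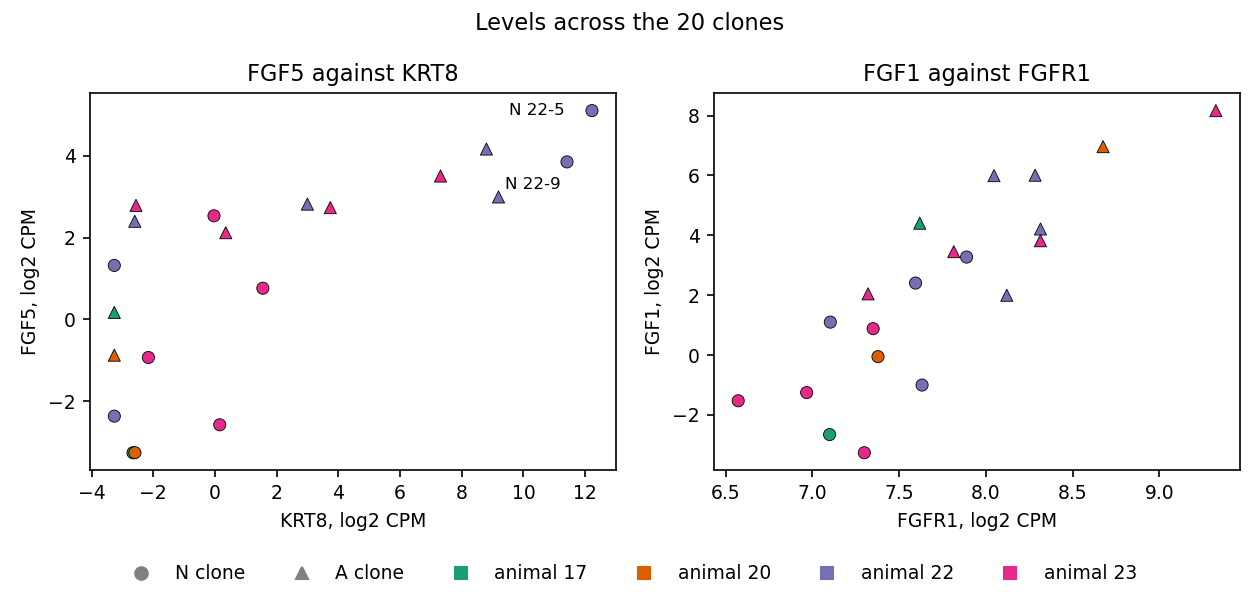
Level of FGF5 against KRT8 (left) and of FGF1 against FGFR1 (right) in the 20 clones, as log2 CPM (prior count of 2), with circles for N clones, triangles for A clones and colours for animals. N 22-5 and N 22-9 sit at the upper right for FGF5 and KRT8 (r of 0.72). FGF1 and FGFR1, both called higher in A clones, had r of 0.85 over the clones of both groups.

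FGF18, a growth factor of bone and cartilage, had overlapping ranges. N clones lay between 0.789 and 7.13 CPM around a median of 3.50, and A clones between 0.954 and 8.38 around 3.08. It had a log2 fold change of -0.07 ± 0.42 (SE, adjusted p = 0.915), and its sign turned under several alternatives. FGF9 had no count in any N clone and 6 counts in all over 4 A clones, at most 3 in any of them. It thus lay at the limit that a count of 0 allows and has no fold change in the main fit. With no filter on low counts, edgeR gave it a log2 fold change of 2.37 ± 0.89 (SE, adjusted p = 0.118), resting on those 6 counts. A difference in FGF9 was not detectable at this depth.

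Most of the remaining 15 FGF genes had few counts. Only FGF19 and FGF22 passed the filter on low counts, neither was called, and the other 13 had at most 44 counts in any clone, with 5 of them at no count throughout. FGF19, a hormone-like FGF of the gut, had 0.126 to 6.88 CPM in N and 0 to 13.2 in A clones (log2 fold change of -0.21, adjusted p = 0.897). Its change was -3.06 in animal 22 alone (adjusted p = 0.243) and 2.10 in animal 23 alone (adjusted p = 0.135), and the interaction was 5.16 ± 1.52 (SE) in log2, with an unadjusted p of 0.00427 and an adjusted p of 0.333. FGF22 had 0.236 to 1.69 CPM in N and 0.204 to 3.19 in A clones (0.48, adjusted p = 0.340). These genes, which fall outside the naming rule, were named after their values were seen.

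Of the receptors, FGFR1 was called higher in A clones, as FGF1 was. FGFR1 is the main FGF receptor of mesenchymal cells, and its level was 95.01 to 237 CPM in N clones (median 160, mean 161 ± 40.9, SD, n = 10) and 160 to 642 in A clones (median 295, mean 312 ± 136, SD, n = 10). The ranges met at about 160 to 237 CPM, and 7 A clones exceeded all N clones. It changed by 0.95 ± 0.21 (SE) on the log2 scale, or 1.94-fold, with an adjusted p of 0.00686, and A clones were higher in 4 of 4 animals. The call was present in all 20 fits that left out 1 clone, with log2 fold changes of 0.74 to 1.02, and was lost without animal 23 (0.71, adjusted p = 0.0789). Animal 22 alone gave 0.60 with an adjusted p of 0.143, and animal 23 alone gave 1.32 with an adjusted p of 0.0966. FGF1 and FGFR1 had a Pearson r of 0.85 and a Spearman rho of 0.85 across the 20 clones, and r was 0.84 after centring within animals, which again is a description. Both genes were called higher in A clones, and centring within animals leaves the difference between the groups in. These values thus hold that difference too. A 22-121, the lowest A clone in FGF1 at 3.90 CPM, had 278 CPM of FGFR1, above every N clone. Clone A 23-14 was the highest in both genes.

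FGFR2, the receptor family member whose epithelial form binds FGF7 and FGF10, was not called. Its median was 1.19 CPM in N clones, between 0.0972 and 16.4, and 12.2 in A clones, between 0.341 and 20.9. The ranges overlapped, since A 17-57 lay among the lowest N clones. In animal 17 the N clone was the higher, at 3.16 CPM against 0.341 in the A clone. Its log2 fold change was 2.21 ± 0.94 (SE, adjusted p = 0.101). In animal 23 its 4 A clones had 4.72 to 20.9 CPM and its 4 N clones 0.0972 to 0.420, and that animal alone gave 5.72 ± 0.61 (SE, adjusted p = 0.00786). In animal 22 the A clones had 13.4 to 18.6 CPM and the N clones 0.170 to 16.4, so they overlapped. The interaction was 4.68 ± 1.21 (SE) in log2, with an unadjusted p of 0.00169 and an adjusted p of 0.319. DESeq2 over all clones gave FGFR2 a log2 fold change of 2.35 with an adjusted p of 0.00584. That fit called 14.3% of its genes higher in A clones, and DESeq2 made more false calls (48) than edgeR (7) on simulated data. The limma-voom fit also called FGFR2, at 2.31 with an adjusted p of 0.0391, and limma-voom made 8 false calls on simulated data. FGFR2 was called in 7 of 33 alternatives. The table counts genes and not transcript forms, so the epithelial and mesenchymal forms of FGFR2 were not separated.

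**Figure D4:**
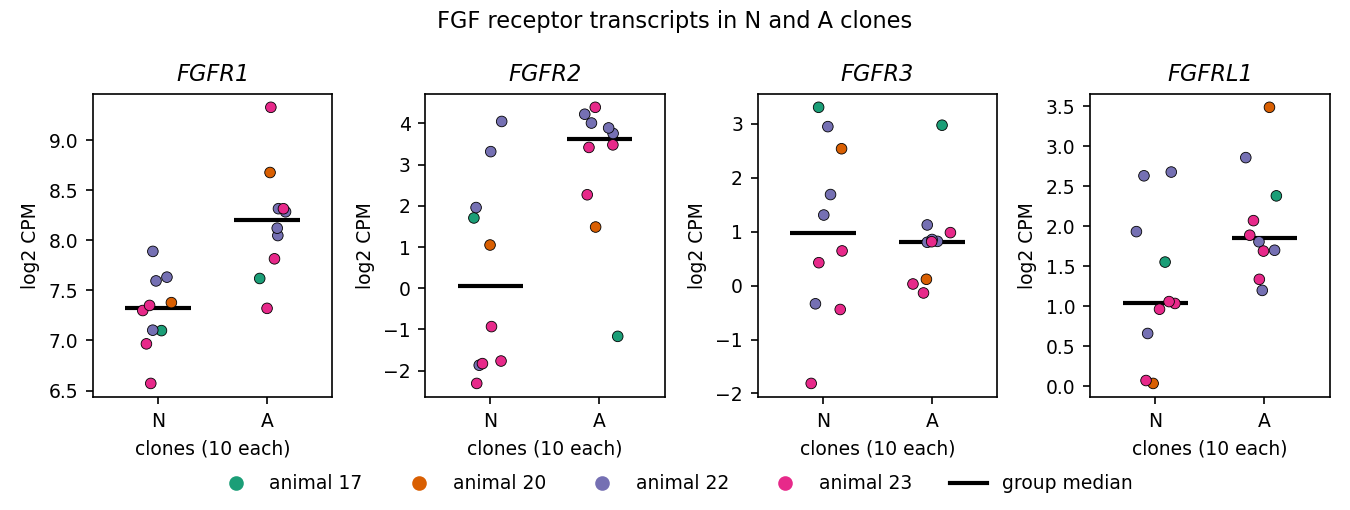
Level of the 4 receptor genes that passed the filter, in N and A clones, as log2 CPM (prior count of 2), with 1 point per clone coloured by animal and a bar at the group median of 10 clones; the vertical scale differs between panels. For FGFR1, 7 A clones lie above every N clone, and A 17-57 is the low A clone in FGFR2 and the high one in FGFR3.

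FGFR3 had 0.180 to 9.80 CPM in N and 0.806 to 7.76 in A clones, and its log2 fold change was -0.46 ± 0.44 (SE, adjusted p = 0.480). FGFRL1, a receptor-like protein that lacks the kinase, had 0.921 to 6.30 CPM in N and 2.19 to 11.1 in A clones, at a log2 fold change of 0.71 ± 0.37 (SE, adjusted p = 0.174). Without N 22-5 and N 22-9 it was 1.09 with an adjusted p of 0.0446. FGFR4, the co-receptors KL and KLB, which hormone-like FGFs need, and the binding proteins FGFBP1 and FGFBP3 had at most 9 counts in any clone and were left out by the filter, and FGFBP2 is not listed under that symbol. The receptor group thus held 4 tested genes of 9 listed, of which 1 was called higher and none lower.

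Among enzymes that build and trim heparan sulfate, 12 of 18 were tested, 3 were called higher in A clones and none lower, and the median log2 fold change was 0.44, where 10.3% of all genes tested were called higher, 10.3% were called lower and the median was -0.01. NDST1, which starts the sulfation of the chain, had 61.0 to 137 CPM in N and 105 to 302 in A clones. It changed by 0.75 ± 0.13 on the log2 scale (SE, adjusted p = 0.00181), and 8 A clones exceeded all N clones. HS2ST1, which sulfates the chain's uronic acids, had 23.6 to 59.6 CPM in N and 46.2 to 72.5 in A clones, with a log2 fold change of 0.53 ± 0.13 (SE, adjusted p = 0.0107). GLCE, the epimerase that prepares those acids, had 0.43 ± 0.15 (SE, adjusted p = 0.0494). In animals 17 and 20 the A clone lay below the N clone, at 25.2 against 29.3 CPM and 31.9 against 42.8 CPM. The GLCE call was present in only 7 of 20 fits that left out 1 clone. The calls of NDST1 and HS2ST1 were present in all 20, but were lost without animal 23 (adjusted p = 0.0539 and 0.134), in animal 22 alone (0.112 and 0.335) and in animal 23 alone (0.104 and 0.133).

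The ERK targets and feedback inhibitors did not move as a block. Of 21 listed genes 20 were tested, 5 were called higher in A clones, 2 were called lower and 13 were not called, at a median log2 fold change of 0.46, beside 10.3% of all genes called higher and 10.3% called lower. Without animal 23, or in that animal alone, none of the list was called. The best known transcriptional readouts of FGF signalling lay above 0 but were not called. These were SPRY2 (log2 fold change 0.54, adjusted p = 0.117), SPRY4 (0.57, adjusted p = 0.115), DUSP6 (0.46, adjusted p = 0.233), ETV4 (0.46, adjusted p = 0.297) and ETV5 (0.27, adjusted p = 0.317). SPRY2 had 20.0 to 61.6 CPM in N and 36.0 to 104.5 in A clones, so the groups overlapped.

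The 7 called genes of that list fall outside the naming rule and are named after their values were seen. The ERK-pathway inhibitors SPRED1 (0.81, adjusted p = 0.0101), SPRED2 (1.19, adjusted p = 0.00852) and SPRED3 (0.65, adjusted p = 0.0238) were higher in A clones. The call of SPRED3 was lost when N 17-23, N 20-15, A 17-57 or A 20-106 was left out (adjusted p of 0.0505 to 0.0521), and without N 22-5 and N 22-9 (0.0697). Also higher were DUSP5, a nuclear ERK phosphatase (1.59, adjusted p = 0.00547), and PHLDA1 (0.84, adjusted p = 0.00979). EGR1, an immediate early gene of ERK signalling, was lower, with 193 to 570 CPM in N and 1.46 to 229 in A clones (-2.11, adjusted p = 0.0149). FLRT3, a membrane protein that binds FGF receptors, was lower too, with 8.17 to 83.3 CPM in N and 0.272 to 22.7 in A clones (-1.98, adjusted p = 0.0166). In animal 20 FLRT3 lay the other way, at 9.66 CPM in the A clone and 8.17 in the N clone. The part of the proliferation genes in these values was not tested either.

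**Figure D5:**
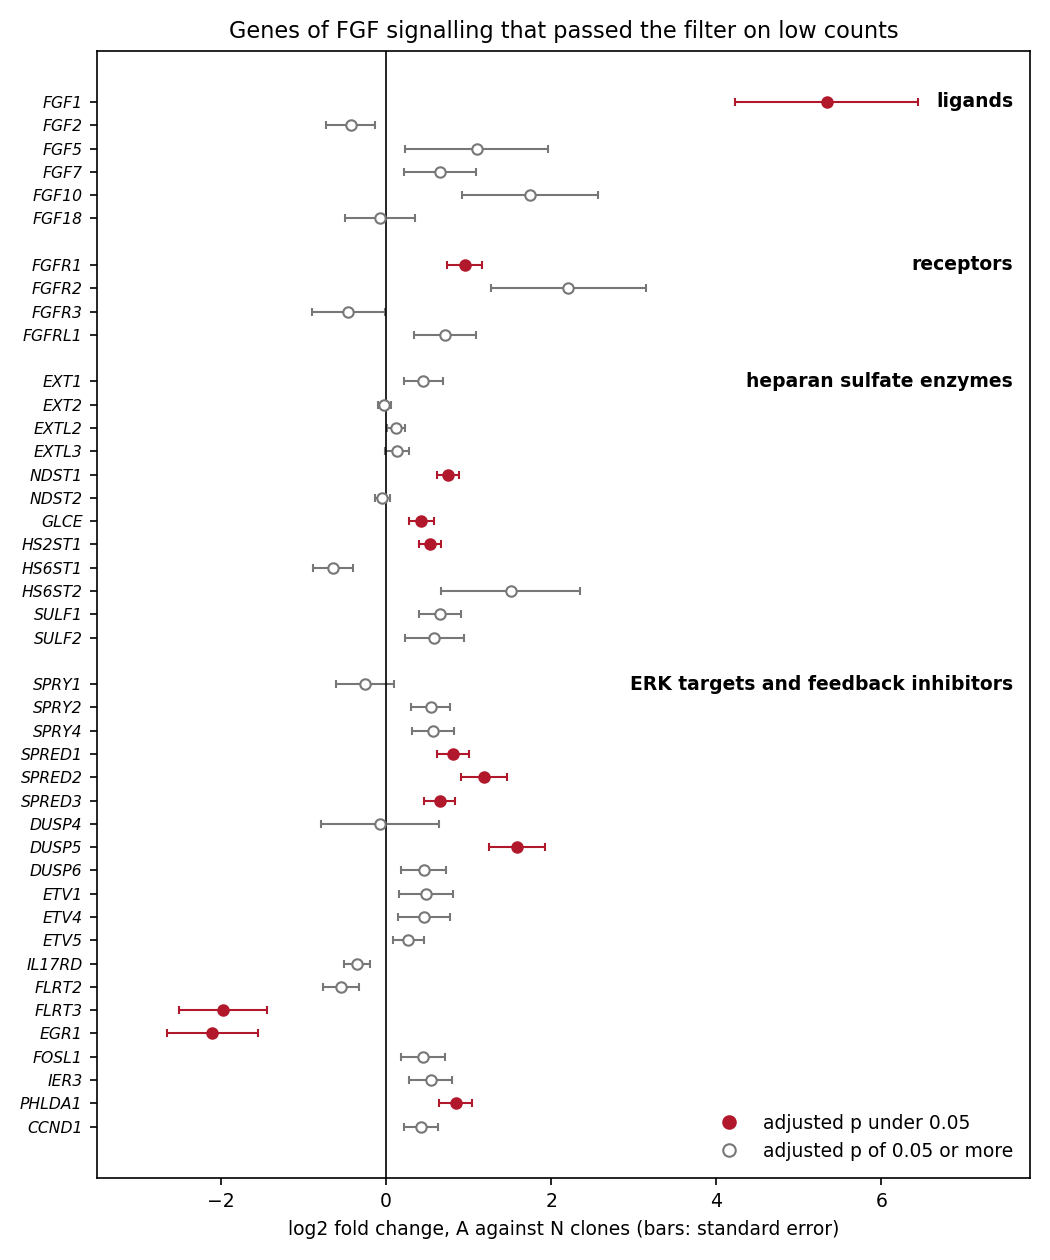
Log2 fold change of A against N clones for each tested ligand, receptor, heparan sulfate enzyme and ERK target or feedback inhibitor, with the standard error as a bar and filled red points where the adjusted p was under 0.05. FGF1, at 5.34, lies furthest from 0, and EGR1 and FLRT3 are the called genes that were lower in A clones.

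The genes whose levels tracked each ligand most closely over the 20 clones are given as a description, by Pearson r of log2 CPM. FGF1 was followed by WDR47, a microtubule-associated protein (r of 0.92), SAMD4A, a repressor of translation (0.92), and BEGAIN (0.91). All 3 were themselves called higher in A clones in the main edgeR test. Their log2 fold changes were 0.54 (adjusted p = 0.0137), 0.84 (adjusted p = 0.00377) and 5.78 (adjusted p = 0.0019). FGF7 was followed by OGN, the matrix proteoglycan osteoglycin (0.94), by ECM2, another matrix protein (0.92), and by the semaphorin receptor PLXND1 (0.90). FGF10 was followed by the collagen COL8A1 (0.87), PGRMC2 (0.82) and TECPR2 (0.81). FGF2 was followed by MKLN1 (0.86), TRIM41 (0.83) and ZBTB45 (0.83), and FGF5 by the semaphorin receptor PLXNA2 (0.89), LOC100848484 (0.85) and LOC107132207 (0.84). FGF18 had the weakest neighbours, TJAP1 (0.76), IL1RL2 (0.75) and LRP8 (0.75). After centring within animals, 1 of the 3 genes was still among the closest for FGF1, FGF2, FGF5 and FGF18, and none for FGF10. The ranking took A and N clones together, and centring leaves the difference between the groups in. Besides the genes that followed FGF1, LOC100848484, PGRMC2 and TECPR2 were called higher in A clones. Among the ligands themselves, r ran from -0.60, between FGF2 and FGF5, to 0.44, between FGF1 and FGF7, so no pair of ligands tracked each other closely.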

How the data were processed

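RNA of 20 clones (10 A, 10 N) was sequenced as paired reads of 150 bases from a strand-specific library kit. Per the labels, the authors used bcl2fastq 2.20, Trimmomatic 0.36, STAR 2.5.2b and featureCounts of Subread 1.5.2 on ARS-UCD1.2. The deposited values are raw counts of uniquely mapped reads per gene, which are not normalized. The strand setting of the counting is not given in the sources used here. A row with no gene name, 0.113% to 0.333% of a clone's counts, was left out.

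Counts were tested with edgeR 4.0.16 in R 4.3.3 (TMM, filterByExpr on the condition, robust quasi-likelihood fit, animal as a block), over all 12900 genes that passed, and called at an adjusted p under 0.05. SE is the log2 fold change divided by the square root of F. DESeq2 1.42.0 and limma-voom (limma 3.58.1) were alternatives, as were other scalings and filters, counts summed per animal and condition, and leaving out each clone or animal. On simulated data with 200 genes changed by 2 on the log2 scale among 12790, the edgeR fit with the block recovered 182 and made 7 false calls. In a simulation of the same kind, DESeq2 with the block recovered 187 of 200 and made 48 false calls. The log2 CPM used in plots and correlations have a prior count of 2.

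The block rests on the animals: the mean deviation of an animal's A clones correlated with that of its N clones at r of 0.253 for animal 17, 0.193 for 20, 0.241 for 22 and 0.440 for 23.

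The members and gene lists were chosen with earlier results of these data known. The genes named were the 7 ligands; the receptors, co-receptors and binding proteins; SPRY2, SPRY4, DUSP6, ETV4 and ETV5; up to 3 called genes per direction of each other list; and the 3 genes with the highest Pearson r to each tested ligand. Overlapping genes were looked up in a RefSeq table of a later assembly, where all 7 ligands matched by symbol, and no coordinates were used. Intervals of counting error are not given, and a count of 0 is read as up to 3 counts.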

Additional observations from a re-analysis of the deposited data

Results flagged for a closer look

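Single clones far from the rest of their group were looked for in 54 groups of 10 clones (Dixon's ratio of the end gap to the range, against its 95% critical value), where chance gives about 1 in 20, or 2.7 groups. There were 4 such clones, of which 3 were A 17-57. It was the lowest A clone in FGFR2, at 0.341 CPM against 2.70 in the next (ratio 0.477), and in FLRT3, at 0.272 against 3.80 CPM (0.570). It was the highest A clone in FGFR3, at 7.76 against 2.08 CPM (0.594). The N clone of the same animal, N 17-23, was the highest N clone in EGR1, at 570 against 298 CPM (0.600). None of the 6 tested ligands had such a clone. The ratios were taken on the scale of log2 CPM.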

How the results depend on the processing

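The number of ligands called (1) was 0 with at least 10 counts in every clone (FGF1 itself was left out), with counts summed per animal and condition, without animal 23 and in animal 22 alone. It was 2 with DESeq2 (FGF1 and FGF10) and without N clones 22-5 and 22-9 (FGF1 and FGF5), and 1 to 2 when 1 clone was left out. The receptors called (1) numbered 2 with DESeq2, limma-voom, without animal 17 and without N 22-5 and 22-9, 0 with summed counts, without animal 23 and in animal 22 alone, and 1 to 2 when 1 clone was left out. FGFR2 was the second receptor in each of these fits except that without N 22-5 and 22-9, where it was FGFRL1. The heparan sulfate enzymes called (3, all higher) numbered 5 with DESeq2 (4 higher, 1 lower) and 1 in animal 23 alone (higher). They numbered 0 with summed counts, without animal 23 and in animal 22 alone, and 2 to 4 when 1 clone was left out. The targets called (7, with 5 higher and 2 lower) numbered 4 without animal 22 (all higher) and 1 in animal 22 alone (lower). They numbered 0 with summed counts, without animal 23 and in animal 23 alone, and 6 to 8 when 1 clone was left out. Fits on 1 animal, without animal 23 or on summed counts used fewer samples. The fit without animal 22 used as many clones as that without animal 23. Without animal 22 the calls of FGF1, FGFR1, NDST1, HS2ST1, SPRED2, SPRED3 and DUSP5 were present. Those of GLCE, SPRED1, PHLDA1, EGR1 and FLRT3 were lost without animal 22. Reversed log2 fold changes in animal 22 alone were 0.12 for FGF2, -0.44 for FGF5, -0.15 for FGFRL1 and -0.21 for ETV5. FGFR3 was 0.557 in animal 23 alone and 0.0263 without N 22-5 and 22-9. FGF18 was 0.0840 with limma-voom, 0.0586 with summed counts, 0.157 without N 22-5 and 22-9, and -0.355 to 0.0807 when 1 clone was left out. FGF19 was 0.0917 with no replicate block, 0.14 with limma-voom, 0.13 with summed counts, 1.56 without animal 22, 2.10 in animal 23 alone, against -3.06 in animal 22 alone and -1.95 without animal 23, and -0.55 to 0.19 when 1 clone was left out. The cause of these changes was not tested. With no replicate block, FGF1 had a log2 fold change of 4.85 (adjusted p = 0.00445), and of the genes named with a call only GLCE lost it (0.40, adjusted p = 0.119). The interaction of animals 22 and 23 called no ligand under any alternative.

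Depth limits FGF9 and the FGF and receptor genes left out by the filter, for which a count of 0 allows up to 0.216 CPM in the shallowest clone. Only animals 22 and 23 gave more than 1 clone per group, so how far the differences hold between animals rests mainly on these.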
